A study of Arabidopsis thaliana with 8 samples.

Results

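The contrast described here is the transcript profile of *fhy3* seedlings against wild type at 32 h of constant red light, 8 h after the 24 h sample and therefore in the subjective afternoon if the 24 h sample is taken as subjective dawn. Wild type of the No-0 ecotype and the *fhy3-4* mutant of the same ecotype were grown on medium with sucrose in 12 h light and 12 h dark for 7 days, moved to constant red light of 660 nm, and collected whole, about 100 seedlings to a sample, at 24, 32, 40 and 48 h. Each genotype and time is 1 Affymetrix ATH1 array, so the contrast sets 1 array against 1 array, has no replicate, and allows no test and no p-value. The *fhy3-4* mutant is a single allele, and whole seedlings mix root, hypocotyl and cotyledon tissue, so that fewer cells of a type and less RNA per cell cannot be told apart. A probe set, the group of oligonucleotides that reports on a transcript, was included where its signal reached 100 in at least 1 of the 2 arrays at 32 h. This gave 13154 probe sets, of 22145 that are paired with 1 nuclear gene or are unnamed in the table used here, and of 22810 on the array. A single nuclear gene was paired with 7122 of the 13154, and the other 6032 are unnamed.

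FHY3 is a nuclear protein related to transposases that, with its homologue FAR1, switches on genes of phytochrome A signalling. Phytochromes are the red and far-red light receptors of plants, and the light signal they carry sets the phase of the circadian clock. In constant light the clock makes many transcripts rise in the subjective day and fall at night, or the reverse, so a difference between genotypes at a single time can be a difference of level or of timing. No probe set named *FHY3* was paired in the table used here, so the mutated gene itself could not serve as a check of the labels.

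The mean signals of the 8 arrays lay between 402 and 439 and their medians between 132 and 145. By rank, the wild type array at 32 h was the least like the other arrays, with a median Spearman correlation of 0.966, against 0.968 to 0.984 for the rest, and there is no second wild type array of that time to put in its place. The inclusion rule itself favours differences, because a probe set can enter through the array in which it is high. Both arrays reached 100 for 11833 probe sets, the *fhy3* array alone for 819, and the wild type array alone for 502. The probe sets nearest to the limit had a higher signal of 100.02 just inside it and 99.98 just outside it.

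The noise scale was the difference between the 48 h and 24 h arrays of the same genotype, taken a full day apart. That difference also holds any effect of a further day in red light. Log2 differences were taken after signals under a lower limit of 20.7, which is 5% of the mean of all signals, were set to it. Where an array lay under that limit the fold is given as at least its value. Over the 13154 probe sets, the difference of *fhy3* from wild type at 32 h had an SD of 0.57 on the log2 scale and a median size of 0.28. The 48 h over 24 h difference had an SD of 0.32 in wild type and 0.24 in *fhy3*, so the spread at 32 h was 2.03 times that of the 24 to 48 h differences of both genotypes pooled. The size of the difference exceeded 1.14 in 5% of the probe sets and 2.24 in 1%. It was larger than both of the probe set's own 48 h over 24 h differences in 7975, or 60.6%. The median difference was 0.01 over the probe sets described. The median signal of the whole array at 32 h was lower in wild type, at 132, than in *fhy3*, at 145. A 2-fold difference was reached by 638 higher and 229 lower probe sets, or 6.59%, where 1.80% of the same probe sets were 2-fold apart between 48 and 24 h in wild type and 0.639% in *fhy3*. Inclusion by the 32 h signals favours the first of these shares.

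The spread of the genotype difference was not the same at every time. The SD was 0.37 at 24 h, 0.56 at 40 h and 0.38 at 48 h, so the 32 h and 40 h contrasts were alike in spread and wider than those at 24 and 48 h. The probe sets were included by their signals at 32 h, which favours a wide difference at that time over the others. No test of these spreads was possible with 1 array each.

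**Figure D1:**
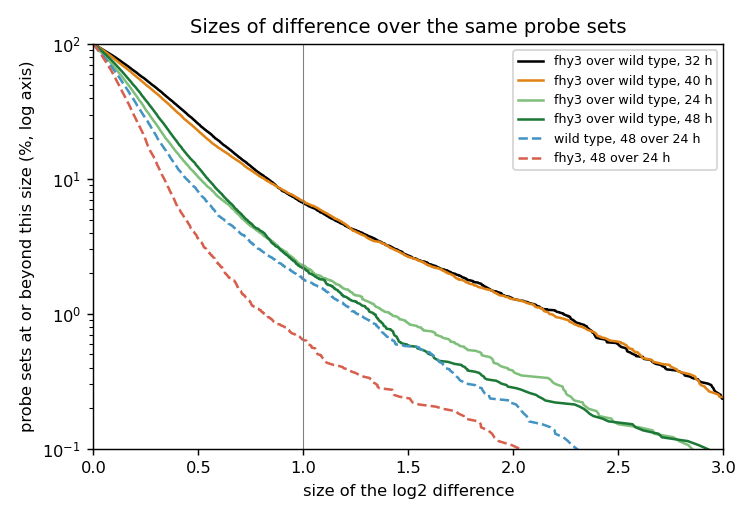
Share of the 13154 probe sets (percent, log axis) whose log2 difference is at least the size on the x axis, for *fhy3* over wild type at each time (solid lines) and for 48 h over 24 h within a genotype (dashed lines). The lines of 32 and 40 h lie above the others, and at the grey line of a 2-fold difference they stand at 6.59% and 6.83%, against 2.27% and 2.17% at 24 and 48 h. The probe sets were included by their 32 h signals, which favours the line of 32 h.

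A probe set was called where the genotypes were at least 2-fold apart at 32 h and the difference was larger than the 48 h over 24 h difference of that probe set in both genotypes. This rule gave 818 probe sets, 592 higher in *fhy3*, which is 4.5% of those described, and 226 lower, which is 1.72%. A further 49 were 2-fold apart but not beyond their own noise. The median size was 2.78-fold among the higher and 2.35-fold among the lower. A 4-fold difference was reached by 145 higher and 20 lower probe sets, and an 8-fold difference by 26 and 4. A single gene was paired with 313 of the higher and 125 of the lower, and 57 and 11 of these carry a symbol other than a locus code.

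The excess of higher over lower calls depended on how the arrays were scaled. As deposited, 72.4% of the calls were higher in *fhy3*. With all arrays brought to the same distribution by quantile normalisation the counts were 502 higher and 311 lower, or 61.7% higher. With each array centred on its median signal they were 452 and 387, or 53.9%, and the median difference over all probe sets then moved to -0.13. Of the 818 calls, 712 were also made after quantile normalisation and 678 after median centring. Calls were commoner at low signal. Among probe sets whose signal lay between 100 and 200, 253 of 3073 were called higher and 78 lower, whereas at signals of 3000 and above 4 of 491 were called higher and 5 lower. Of the higher calls, 372 had a wild type signal under 100, and of the lower calls, 100 had a *fhy3* signal under 100. Where both arrays reached 100, 220 were higher and 126 lower.

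**Figure D2:**
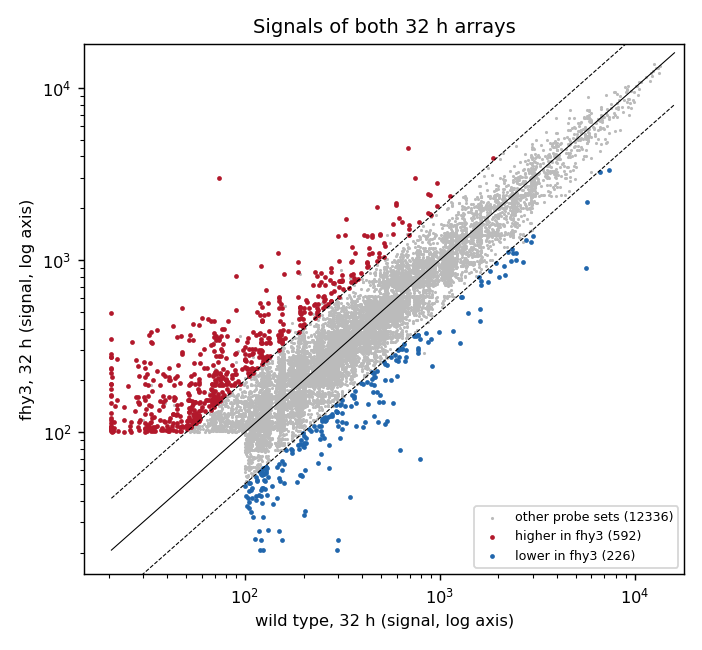
Signal of each probe set on the wild type array (x) and the *fhy3* array (y) at 32 h, both on log axes, with signals under 20.7 drawn at that limit. The solid line marks equal signals and the dashed lines a 2-fold difference, and 592 probe sets (red) were called higher and 226 (blue) lower in *fhy3*, with most of the red points at wild type signals under 100.

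Of the other times only 40 h lay outside the call rule, since the 24 and 48 h arrays entered it through the noise scale. At 40 h 234 of the 592 higher probe sets, or 39.5%, were also 2-fold higher in *fhy3*, against 5.01% of all probe sets described, and 52 of the 226 lower, or 23.0%, were 2-fold lower, against 1.82%. The values at 24 and 48 h are a description of probe sets that those arrays helped to choose. Of the 592 higher, 90, or 15.2%, were 2-fold higher at 24 h and 85, or 14.4%, at 48 h, where 1.32% and 1.31% of all were. Of the 226 lower, 55, or 24.3%, were 2-fold lower at 24 h and 49, or 21.7%, at 48 h, where 0.958% and 0.867% of all were. In direction alone, 495, 462 and 518 of the 592 were above 0 at 24, 40 and 48 h, and 176, 163 and 192 of the 226 were below 0. All 4 times had the same direction for 370 of the higher and 131 of the lower. No other time reached 2-fold for 306 of the higher and 139 of the lower, and 170 and 90 stayed under 1.5-fold at each of them. A 2-fold difference was present at all 4 times for 25 higher and 21 lower probe sets.

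The difference at 32 h can be written as the sum of the mean genotype difference at 24 and 48 h and of what each genotype did between those times and 32 h. These parts share arrays with the contrast and are a description of it. Between the mean of 24 and 48 h and 32 h, the log2 signal moved with an SD of 0.46 in wild type and 0.26 in *fhy3*. In wild type 219 probe sets were 2-fold up at 32 h and 306 were 2-fold down, and in *fhy3* 82 were up and 19 down. Of the 219 that were up in wild type, 22 were 2-fold up in *fhy3*, with median moves of 1.22 and 0.29, and 73 were called lower in *fhy3* at 32 h. Of the 306 that were down in wild type, 2 were 2-fold down in *fhy3*, with median moves of -1.30 and 0.05, and 216 were called higher. Of all probe sets described 1.72% were called lower and 4.5% higher. The wild type signal at 32 h that chose these 2 sets also enters the contrast, so a high share of calls among them is built in.

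Among the 592 probe sets called higher, the wild type signal at 32 h was below its 24 and 48 h mean in 564, and the wild type move was the largest of the 3 parts in 379, the *fhy3* move in 72 and the difference already present at 24 and 48 h in 141. The medians of these parts were -0.81, 0.28 and 0.43. Among the 226 called lower the wild type move was the largest part in 131, the *fhy3* move in 15 and the 24 and 48 h difference in 80, with medians of 0.74, -0.05 and -0.46. Thus the wild type array at 32 h, on which each of these counts rests, carried the larger share of the movement in both directions.

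**Figure D3:**
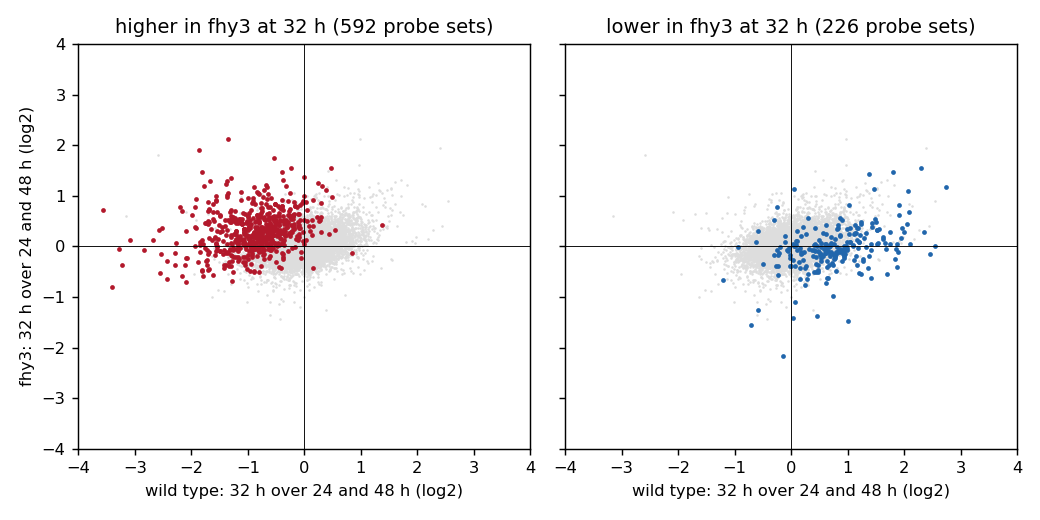
Log2 change from the mean of 24 and 48 h to 32 h in wild type (x) and in *fhy3* (y) for all probe sets described (grey), with those called higher in *fhy3* at 32 h on the left (red, 592) and those called lower on the right (blue, 226). The red points lie mostly left of 0 and the blue points mostly right of it. On the *fhy3* axis 469 of the 592 red points lie above 0, while the blue points lie around 0. The medians in wild type and *fhy3* are -0.81 and 0.28 on the left and 0.74 and -0.05 on the right.

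In what follows, the signals of a gene are given in the order 24, 32, 40 and 48 h for each genotype. The highest difference of all belonged to *ICL* (AT3G21720), which encodes isocitrate lyase, the glyoxylate cycle enzyme that seedlings use to turn stored oil into sugar. Its signals were 311, 74.0, 72.2 and 115 in wild type, against 473, 3015, 2162 and 1018 in *fhy3*, so that the genotypes were 0.60 log2 units apart at 24 h and 40.8-fold apart at 32 h. The *fhy3* signal was 4.35-fold above its 24 and 48 h mean at 32 h, while the wild type signal was 2.56-fold below its own. *GAT1_2.1* (AT1G15040), which encodes a glutamine amidotransferase-like protein of nitrogen metabolism, gave 128, 156, 188 and 122 in wild type, against 157, 346, 1369 and 145 in *fhy3*, a 2.22-fold difference at 32 h that was 2-fold also at 40 h but not at 24 or 48 h. Of the 6 measured members of the list of carbon and nitrogen remobilisation genes, these 2 were called higher and none lower, where 4.5% and 1.72% of all probe sets were, and the median difference was 0.22 where that of all probe sets was 0.01. The regulators *WRKY53* and *AKINBETA1* had log2 differences of -0.57 and -0.90 and were not called as deposited, but *AKINBETA1* was called lower after median centring, at -1.03.

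Several gene families were picked out by symbol after their values had been seen. The counts of their calls are to be read against the 4.5% of all probe sets called higher and the 1.72% called lower. These shares depend on how a probe set entered. Of the 819 that reached 100 in the *fhy3* array alone 372 were called higher, against 220 of the 11833 that reached it in both. Of the 502 that reached it in the wild type array alone 100 were called lower, against 126 of the 11833. *GSTU25* and *UGT73B4* entered through the *fhy3* array alone, which favours a call, and *GSTU26* and *UGT72E2* through both. Of 9 glutathione transferase genes of the GSTU and GSTF classes, enzymes that join glutathione to reactive compounds, 4 were called higher and none lower, and 2 were below 0. *GSTU25* (AT1G17180) gave 81.1, 32.9, 69.6 and 140 in wild type, against 99.2, 335, 61.5 and 611 in *fhy3*, 10.2-fold higher at 32 h, with log2 differences of -0.18 at 40 h and 2.12 at 48 h. Its own noise was large, since the *fhy3* signal differed by 2.62 log2 units between 24 and 48 h. Its neighbour in the genome, *GSTU26* (AT1G17190), gave 213, 150, 364 and 319 in wild type, against 392, 578, 481 and 441 in *fhy3*, with all 4 *fhy3* signals above all wild type ones. *GSTU28* and *GSTF4* were 2.99-fold and 3.25-fold higher at 32 h, and both were under 1.5-fold at 24, 40 and 48 h.

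Of 24 UGT genes, which encode glycosyltransferases that attach sugars to hormones, phenolics and foreign compounds, 7 were called higher, against 4.5% of all probe sets, and none lower, with 7 below 0 and a median difference of 0.68. After median centring 5 of the 24 were called and the median was 0.55. *UGT73B4* (AT2G15490) gave 43.9, 17.1, 43.4 and 65.0 in wild type, against 53.0, 190, 118 and 168 in *fhy3*, at least 9.21-fold higher at 32 h with the wild type array under the lower limit. *UGT72E2* (AT5G66690), whose product glucosylates the building blocks of lignin, gave the better measured signals of 912, 493, 467 and 952 in wild type, against 1393, 1410.1, 918 and 1829 in *fhy3*. The genotypes were 2.86-fold apart at 32 h, and *fhy3* was the higher at every time. Of 12 BGLU genes, the beta-glucosidases that take sugars off such compounds, 4 were called higher, against 4.5% of all probe sets, and none lower. The 4 below 0 were *BGLU43*, *BGLU28*, *BGLU44* and *BGLU40*, at -0.89, -0.73, -0.61 and -0.15. After either rescaling *BGLU43* was called lower, at -1.01 after quantile normalisation and -1.03 after median centring. The pair *BGLU45* and *BGLU46*, known as monolignol glucosidases, stood at 129 and 422 in wild type, against 276 and 965 in *fhy3*, at 32 h. Their differences were 2.13-fold and 2.29-fold, and *BGLU45* was under 2-fold after median centring, with a log2 difference of 0.96.

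Of 4 MSRB genes, encoding reductases that repair oxidised methionine, *MSRB6* and *MSRB9* were called higher at 2.99-fold and 2.59-fold, against 4.5% of all probe sets. *GR1* (AT3G24170), the cytosolic glutathione reductase, gave 1208, 695, 821 and 1256 in wild type, against 1148, 1397, 1444 and 1402 in *fhy3*. It lay close to the threshold at 2.01-fold and was under it after either rescaling, with log2 differences of 0.93 and 0.88. The list of heat shock and oxidative stress genes had 5 measured members with a median of 0.68, of which only *GSTU25* was called. The others, not called, were the copper chaperone gene *CCS* at 0.74, the metallothionein gene *MT1C* at 0.68, *AOR*, which encodes an alkenal reductase, at 0.62, and *GSTU20* at -0.13. Of 27 listed flavonoid genes 4 had a probe set and 2 reached the signal limit. Both of these were called higher, where 4.5% of all probe sets were, but *DFR* reached the limit through the *fhy3* array alone. *DFR* (AT5G42800), encoding dihydroflavonol reductase of anthocyanin synthesis, gave 107, 69.7, 130 and 229 in wild type, against 185, 163, 732 and 135 in *fhy3*, and the flavonoid glucosyltransferase gene *UGT78D2* (AT5G17050) gave 267, 103, 161 and 338 in wild type, against 218, 236, 284 and 262 in *fhy3*. In both the *fhy3* signals at 24, 32 and 48 h lay close together, and the wild type signal at 32 h was the lowest of the 8.

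**Figure D4:**
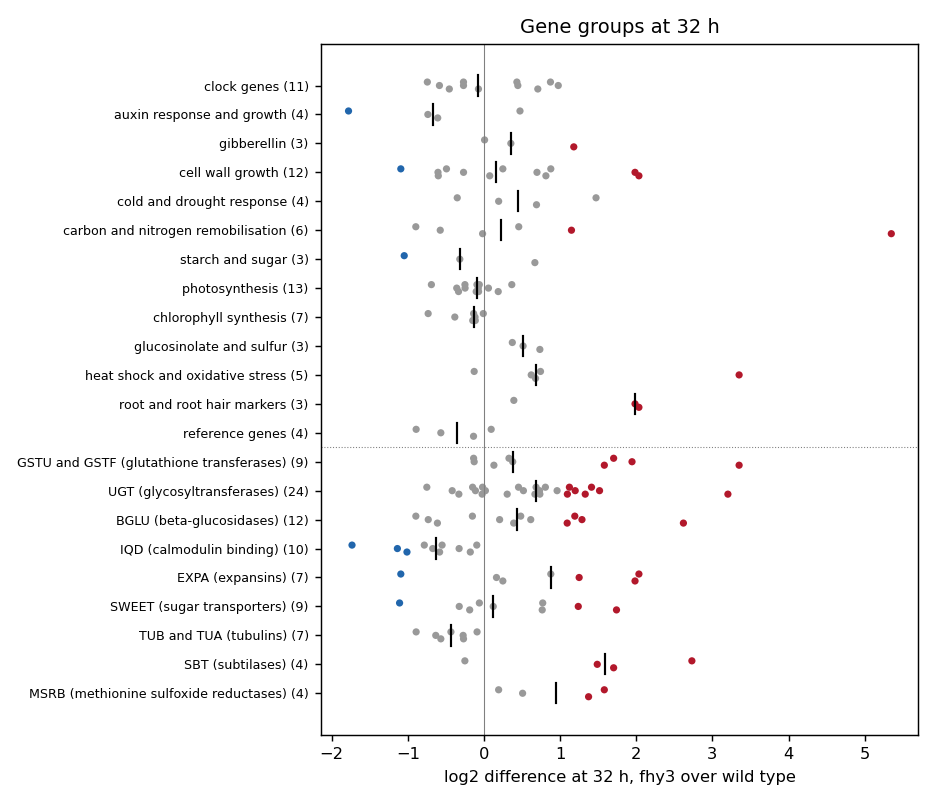
Log2 difference of *fhy3* over wild type at 32 h for each measured gene of the lists with at least 3 members (above the dotted line) and of gene families picked by symbol after their values had been seen (below it), with the number of genes in brackets and a black bar at the median. Red points were called higher and blue points lower, and 7 of 24 UGT genes and 4 of 12 BGLU genes are red while 3 of 10 IQD genes are blue.

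Cell wall genes went both ways. The list of cell wall growth genes had 12 measured members. Of these, 2 were called higher and 1 lower, where 4.5% and 1.72% of all probe sets were. The list median was 0.16 as deposited and 0.03 after median centring. The 2 higher members were the expansin genes *EXPA18* (AT1G62980) and *EXPA7* (AT1G12560), whose products loosen the walls of growing root hairs. *EXPA18* gave 246, 149, 98.6 and 261 in wild type, against 352, 612, 164 and 428 in *fhy3*, with a log2 difference of 2.03 at 32 h. *EXPA7* was weaker, with 38.3, 38.9, 18.4 and 52.8 in wild type, against 78.7, 154, 148 and 128 in *fhy3*, and all its *fhy3* signals were above all wild type ones. At 32 h *EXPA7* reached the signal limit through the *fhy3* array alone. *GH9C1* (AT1G48930), encoding an endoglucanase also known from root hairs, gave 160, 52.1, 62.2 and 180 in wild type, against 221, 366, 146 and 231 in *fhy3*, and was 7.04-fold higher at 32 h. *UPB1* (AT2G47270), a regulator of peroxidase genes at the root tip, gave weaker signals of 76.2, 22.3, 28.2 and 52.5 in wild type, against 76.8, 102, 116 and 75.2 in *fhy3*, 4.57-fold higher at 32 h. The third expansin called higher was *EXPA9*, at 2.38-fold.

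*EXPA7* and *EXPA18* are themselves on the list of root markers, whose levels are given here beside the higher calls. Of 24 listed root and root hair markers 4 had a probe set and 3 reached the signal limit, namely *EXPA7*, *EXPA18* and *PYK10*, which encodes the abundant beta-glucosidase of root endoplasmic reticulum bodies. *PYK10* gave 5674, 5666, 7198 and 7282 in wild type, against 6739, 7434, 9737 and 7196 in *fhy3*, a log2 difference of 0.39 at 32 h that was not called. The summed signal of the 4 markers without *PYK10* ranged from 135 to 336 in wild type and from 327 to 807 in *fhy3*, and with it from 5875 to 7618 and from 7209 to 10063. The part of root content in the higher calls was not tested. Of 18 guard cell and epidermis markers 4 had a probe set, with summed signals of 181 to 241 in wild type and 166 to 210 in *fhy3*, and none of the 16 vascular and mesophyll markers was named in the table used here.

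The member of the cell wall list that was called lower was a further expansin gene, *EXPA8* (AT2G40610). It gave 973, 1302, 818 and 889 in wild type, against 550, 611, 317 and 568 in *fhy3*, 2.13-fold lower at 32 h, and every *fhy3* signal was below every wild type signal. *COB*, which encodes a protein that orients cellulose deposition, and *XTH16*, which encodes a xyloglucan-modifying enzyme, both had a log2 difference of -0.60 and were not called.

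Further higher calls with well known products belonged to transport, iron and stress. *OSM34* (AT4G11650), encoding an osmotin-like defence protein, had signals of 779, 746, 1622 and 1113 in wild type, against 1430.2, 3013, 8524 and 3046 in *fhy3*. It was 4.04-fold higher at 32 h and higher still at 40 h. *LTI30* (AT3G50970), encoding a dehydrin that protects cells during cold and drought, gave 510, 300, 265 and 404 in wild type, against 979, 1376, 929 and 1089.6 in *fhy3*, 4.59-fold higher at 32 h. In *LTI30* all *fhy3* signals were above all wild type signals. The cold list itself, with 4 measured members, had no call, where 4.5% of all probe sets were called higher and 1.72% lower. Its member *COR15A*, a chloroplast protectant, had a log2 difference of 1.47 that was within its own 24 to 48 h difference of 2.16, and *COR47* had -0.35. *OCT1* (AT1G73220), encoding an organic cation transporter, gave 371, 409, 154 and 298 in wild type, against 767, 1394, 1159 and 763 in *fhy3*. For iron, *BHLH101* (AT5G04150), a regulator of the deficiency response, gave 17.8, 13.1, 13.5 and 25.9 in wild type, against 84.0, 108, 66.6 and 139 in *fhy3*. That is at least 5.20-fold higher at 32 h, with a log2 difference of 1.69 to 2.42 over the 4 times, and its fellow *PYE* had a log2 difference of 0.87 and was not called.

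*ATC* (AT2G27550), a relative of *TERMINAL FLOWER 1* that delays flowering, gave 220, 128, 30.4 and 135 in wild type, against 365, 666, 601 and 422 in *fhy3*, 5.19-fold higher at 32 h with a larger difference at 40 h. *GID1B*, encoding a gibberellin receptor, was 2.26-fold higher at 32 h, from 52.3 in wild type to 118 in *fhy3*, while the receptor genes *GID1A* and *GID1C* had log2 differences of 0.35 and 0.01. Of 4 subtilase genes, encoding secreted proteases, 3 were called higher, against 4.5% of all probe sets, and the fourth was below 0. The highest was *SBT4.12* at 6.64-fold, and after median centring 2 of the 4 were called. Sugar transporter genes of the SWEET family were divided. Of 9, *SWEET14* and *SWEET2* were called higher and *SWEET3* lower, and the median of the family was 0.12 as deposited, -0.01 after quantile normalisation and -0.01 after median centring.

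**Figure D5:**
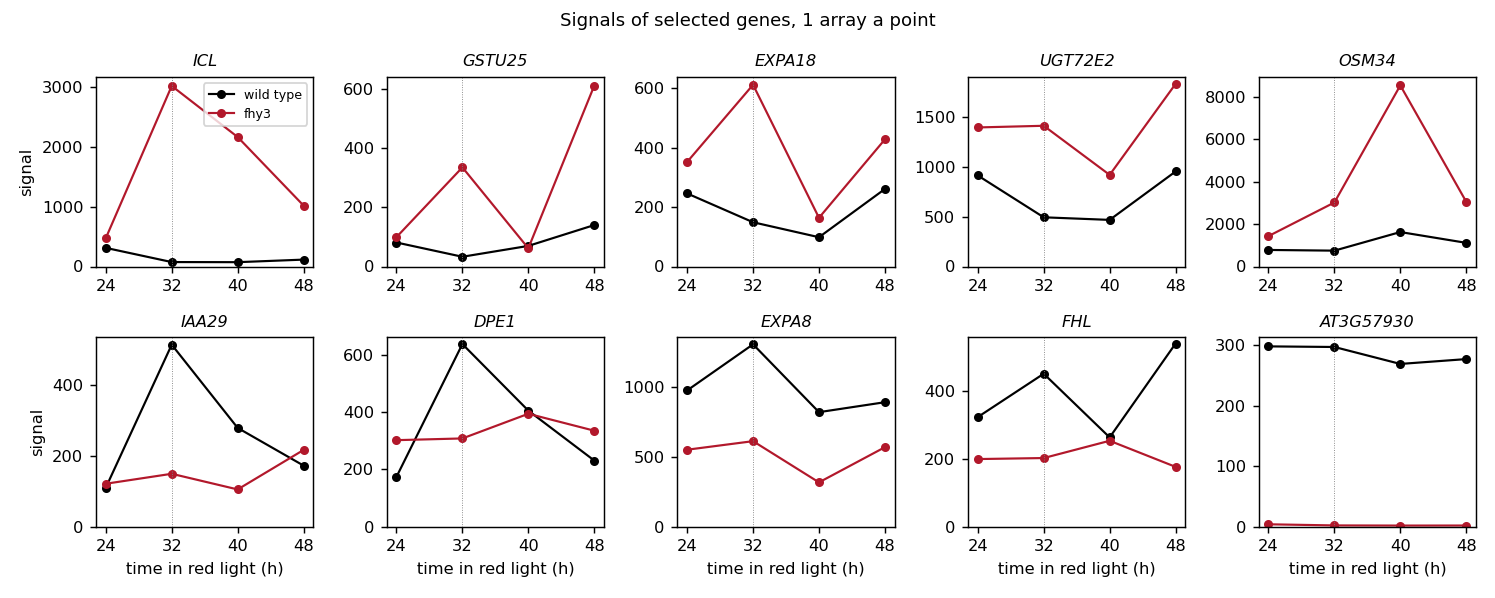
Signal (y, linear axis from 0) of 10 genes against time in red light (x, hours) in wild type (black) and *fhy3* (red), with 1 array a point and a dotted line at 32 h. The genes were picked after their values were seen, and *ICL* reached 3015 in *fhy3* and 74.0 in wild type at 32 h, whereas *IAA29* and *DPE1* peaked at 512 and 637 in wild type at 32 h and *AT3G57930* was apart at each time.

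Most of the highest differences carried only a locus code. Of the 12 highest, 3 have a symbol, *ICL*, *GSTU25* and *UGT73B4*. AT5G41660 gave 10.3, 11.0, 10.1 and 7.65 in wild type, against 495, 490, 511 and 456 in *fhy3*, at least 23.7-fold higher with no wild type array above the lower limit. This difference was not limited to the afternoon, since it was between 4.46 and 4.63 log2 units at every time. AT5G44570 gave 2.51, 6.78, 6.15 and 62.8 in wild type, against 292, 275, 108 and 128 in *fhy3*, and was also higher at each time. By contrast AT3G28270 gave 215, 33.1, 587 and 444 in wild type, against 458, 384, 375 and 540 in *fhy3*. Its *fhy3* signals were nearly level, and the 11.6-fold difference at 32 h rested on the low wild type array. AT5G05250, at 104, 32.2, 110 and 182 in wild type, against 373, 365, 482 and 491 in *fhy3*, also had its lowest wild type signal at 32 h, and was 2-fold or more higher in *fhy3* at all other times too. The others of the 12 were AT3G57010, AT3G17110 and AT1G50060, with folds of at least 13.8, 11.2 and 10.6, AT2G41800 at 9.57-fold and AT1G34510 at a fold of at least 9.21.

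The higher calls of largest excess over the other times, among those paired with 1 nuclear gene, were AT3G28270, AT1G50060, AT1G34510, AT4G29690 and AT4G37900. AT4G29690 gave 75.3, 28.2, 176 and 154 in wild type, against 114, 244, 106 and 179 in *fhy3*, 8.65-fold higher at 32 h and 0.59, -0.72 and 0.22 log2 units apart at 24, 40 and 48 h. AT4G37900 gave 67.9, 19.4, 73.7 and 65.3 in wild type, against 70.0, 121, 84.7 and 77.1 in *fhy3*, at least 5.84-fold higher at 32 h and at most 0.24 log2 units apart at each other time. Its wild type signal of 19.4 at 32 h stood against 65.3 to 73.7 in the other wild type arrays.

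Among the higher calls paired with 1 nuclear gene, the strongest signals after *OSM34* belonged to AT3G28220, AT3G56360, AT2G27730 and AT1G48750. AT3G56360 gave 2123, 867, 1601 and 2096 in wild type, against 2396, 2414, 2934 and 2292 in *fhy3*. It was 2.79-fold higher at 32 h, and its 24 and 48 h signals in the genotypes were within 0.17 log2 units of each other. AT2G27730 behaved alike, with 1995, 1128, 1856 and 2008 in wild type, against 2172, 2351, 2316 and 2177 in *fhy3*, a difference of 2.08-fold that went under 2-fold, at 0.93 log2 units, after median centring. AT3G28220 was 2.09-fold higher at 32 h from a wild type signal of 1883, but had log2 differences of -0.86 and -0.47 at 40 and 48 h, and it too was under 2-fold after median centring. In these strongly expressed genes the *fhy3* signal at 32 h was near its 24 and 48 h values and the wild type signal was the one that dipped. AT1G48750, at 2.89-fold, was higher at 40 h as well.

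Among the genes lower in *fhy3* was *FHL* (AT5G02200), which FHY3 is known to switch on and whose product carries phytochrome A into the nucleus. It gave 324, 452, 264 and 541 in wild type, against 200, 203, 254 and 177 in *fhy3*, 2.23-fold lower at 32 h, lower also at 24 and 48 h, and level at 40 h. Of 15 listed genes of FHY3 action and phytochrome A signalling only 2 had a probe set. The other was *HEMB1*, which encodes a porphobilinogen synthase of chlorophyll synthesis, with 1461, 1624, 1298 and 1313 in wild type, against 1087, 977, 1048 and 1046 in *fhy3*. Its log2 difference of -0.73 at 32 h was under the 2-fold rule, but each *fhy3* signal was below each wild type signal.

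In the auxin list *IAA29* (AT4G32280), encoding a repressor of the auxin response that is used as a marker of auxin and shade growth, was called lower. It gave 110, 512, 278 and 172 in wild type, against 121, 149, 105 and 216 in *fhy3*. The wild type signal had its peak at 32 h, the *fhy3* signal was highest at 48 h, and the genotypes were 3.43-fold apart at 32 h, with log2 differences of -1.41 at 40 h and of 0.14 and 0.33 at 24 and 48 h. Of the 4 measured auxin genes 1 was called lower and none higher, where 1.72% and 4.5% of all probe sets were, and the median was -0.67. *HAT2*, an auxin-induced homeobox gene, and *WES1*, which encodes an enzyme that conjugates auxin, had log2 differences of -0.74 and -0.61, and *GH3.3*, a relative of *WES1*, went the other way at 0.47, none of them called. The signals of *HAT2* were 363, 604, 493 and 372 in wild type, against 352, 362, 388 and 435 in *fhy3*, again with a wild type peak at 32 h.

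All 10 measured genes of the IQD family, whose products bind calmodulin and associate with microtubules, were below 0 at 32 h. Of these, 3 were called lower, against 1.72% of all probe sets, and the median was -0.63. *IQD22* (AT4G23060) gave 162, 247, 255 and 207 in wild type, against 89.5, 74.3, 140 and 124 in *fhy3*, 3.32-fold lower at 32 h, and each *fhy3* signal was below each wild type signal. *IQD19* (AT4G14750), at 112, 187, 81.2 and 120 in wild type, against 85.8, 84.9, 50.4 and 80.4 in *fhy3*, had a log2 difference of -1.14 and a wild type peak at 32 h. *IQD24* (AT5G07240), at 433, 452, 375 and 505 in wild type, against 248, 224, 252 and 227 in *fhy3*, was lower at each time and went to -0.97 log2 units after quantile normalisation. The family was picked out after its values had been seen, and of all probe sets described 50.9% were above 0. The 7 measured tubulin genes were likewise all below 0, with a median of -0.43 and no call as deposited. *TUB6* gave 1469, 2203, 1691 and 1539 in wild type, against 1441, 1188, 1198 and 1484 in *fhy3*, a log2 difference of -0.89, with a wild type peak at 32 h, and was called lower after median centring, at -1.02. After quantile normalisation 1 of the 7, *TUB9*, stood at 0.00.

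*DPE1* (AT5G64860), which encodes the plastid disproportionating enzyme of starch breakdown, gave 174, 637, 405 and 231 in wild type, against 302, 308, 394 and 335 in *fhy3*. It was 2.07-fold lower at 32 h, and the wild type signal was 3.18-fold above its 24 and 48 h mean there while the *fhy3* signals were nearly level. At 24 and 48 h *fhy3* was the higher by 0.80 and 0.54 log2 units. *FIO1* (AT2G21070), which encodes a methyltransferase of RNA that affects circadian period, gave weak signals of 57.6, 108, 80.1 and 56.8 in wild type, against 50.9, 45.9, 67.8 and 51.5 in *fhy3*, and was 2.36-fold lower at 32 h alone. *SWEET3*, at 123 in wild type, against 57.2 in *fhy3*, at 32 h, had a like profile, with differences of at most 0.13 log2 units at other times.

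None of the 12 lowest differences carried a symbol. AT3G57930 gave 298, 297, 269 and 277 in wild type, against 4.12, 2.25, 2.01 and 2.09 in *fhy3*, at least 14.4-fold lower at 32 h and by a like amount at each time. AT2G42900, at 125, 124, 142 and 113 in wild type, against 11.6, 19.1, 12.7 and 13.2 in *fhy3*, was at least 5.99-fold lower and also apart at each time. AT5G01790 gave 168, 348, 244 and 258 in wild type, against 49.3, 41.9, 46.6 and 58.7 in *fhy3*, 8.31-fold lower, and the gene next to it by locus code, AT5G01780, was called lower as well, at 156 in wild type, against 60.2 in *fhy3*, at 32 h. AT3G57930, AT2G42900 and AT5G01790, like AT5G41660 among the higher, were far apart at all 4 times.

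AT4G22510 gave 135, 796, 164 and 359 in wild type, against 54.1, 70.2, 364 and 98.0 in *fhy3*, 11.3-fold lower at 32 h. Its wild type maximum was at 32 h and its *fhy3* maximum at 40 h, when *fhy3* was the higher. AT4G16980, at 51.1, 204, 53.5 and 116 in wild type, against 45.8, 35.1, 112 and 64.6 in *fhy3*, and AT5G21020, at 65.7, 269, 68.0 and 97.3 in wild type, against 45.8, 61.8, 175 and 78.3 in *fhy3*, had the same order of maxima and were 5.82-fold and 4.36-fold lower at 32 h. AT1G63730 gave 35.2, 122, 30.6 and 31.2 in wild type, against 31.3, 23.8, 34.1 and 31.6 in *fhy3*, with a difference of 5.12-fold at 32 h alone and a single high array, wild type at 32 h. AT3G45730, at 250, 155, 33.8 and 355 in wild type, against 22.4, 23.8, 327 and 25.5 in *fhy3*, was 6.53-fold lower at 32 h. The other members of the 12 were AT4G39675, AT2G15880, AT5G12050 and AT1G62510, from 3.90-fold to 3.63-fold lower.

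The lower calls of largest excess at 32 h, among those paired with 1 nuclear gene, were AT4G22510, AT4G16980 and AT1G63730 together with AT3G05620 and AT2G39260. AT2G39260 gave 425, 476, 518 and 507 in wild type, against 470, 172, 516 and 453 in *fhy3*. Here the *fhy3* array at 32 h was the low one of all 8, and the 2.77-fold difference came from it. AT3G05620, at 70.0, 272, 13.5 and 23.9 in wild type, against 54.0, 84.1, 16.9 and 25.9 in *fhy3*, peaked at 32 h in both genotypes, with the lower peak in *fhy3*. Its wild type signals at 24 and 48 h were far apart, and both of its 40 h signals lay under the lower limit of 20.7. The lower calls of highest signal, among those paired with 1 nuclear gene, were AT3G05730, AT3G18050, AT2G30930, AT1G71695 and AT3G54400. AT3G05730 gave 4801, 6633, 5448 and 5146 in wild type, against 2598, 3269, 3621 and 2516 in *fhy3*, 2.03-fold lower at 32 h, and AT3G18050 gave 1620.1, 2449.9, 2107 and 1587 in wild type, against 1036, 995, 610 and 891 in *fhy3*, 2.46-fold lower. In both, each *fhy3* signal was below each wild type signal. AT2G30930, at 1296, 2758, 1466 and 1182 in wild type, against 1004, 1317, 920 and 1042 in *fhy3*, had its wild type peak at 32 h. AT1G71695 and AT3G54400 were 2.03-fold and 2.01-fold lower, and both AT3G05730 and AT3G54400 were under 2-fold after quantile normalisation, at -0.96 and -0.89 log2 units.

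The clock genes were not among the calls. No named probe set existed for 10 clock genes, *PRR7*, *LUX* and *LHY* among them, which were identified through fitted means as described below. Of 11 measured, none was 2-fold apart at 32 h, where 6.59% of all probe sets were. With only 11 genes this is near the share of all probe sets. The median was -0.07, and the values ran from -0.74 in *PRR7* to 0.98 in *LUX*, just under the threshold. *PRR7*, encoding a repressor of the morning genes, gave 118, 562, 241 and 139 in wild type, against 190, 336, 270 and 199 in *fhy3*, and *LUX*, a component of the evening complex, gave 148, 113, 344 and 132 in wild type, against 334, 222, 259 and 300 in *fhy3*. *GI*, which links the clock to flowering, stood at 1127 in wild type, against 751 in *fhy3*, at 32 h, and the dawn gene *LHY* at 198 and 363. In *PRR7* and *GI* the highest signal of the 8 arrays was that of wild type at 32 h. *CCL*, an output gene of the clock, stood at 7162 and 4794, a log2 difference of -0.58.

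The genes of photosynthesis and chlorophyll synthesis had small differences and no call, where 4.5% of all probe sets were called higher and 1.72% lower. With 13 and 7 genes measured, the absence of calls is near those shares. The 13 measured photosynthesis genes ran from -0.69 to 0.37 with a median of -0.09. The lowest was *PIFI*, which encodes a chloroplast protein needed for NADH dehydrogenase activity, at 2798 in wild type and 1733 in *fhy3*. *RCA*, encoding Rubisco activase, stood at 8889 and 10118. The 7 genes of chlorophyll synthesis were all below 0, with a median of -0.14. After quantile normalisation 1 of the 7 was above 0. The 3 measured glucosinolate and sulfur genes, *UGT74B1*, *BCAT4* and *AOP3*, had differences of 0.73, 0.51 and 0.37 and were not called.

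Other lists were too thinly measured to describe as groups. Of 658 list entries 106 had a named probe set. The 4 reference genes had log2 differences of 0.09 for *GAPC2*, -0.14 for *PEX4*, -0.57 for *TUA6* and -0.89 for *TUB6*. Of the starch and sugar list 3 were measured, of which *DPE1* was called, *APL3*, a subunit of the starch-making enzyme, was at 0.67 and *SBE2.2*, a starch branching enzyme, at -0.32. The gene *BIM1* of brassinosteroid response was at -0.48, *EIN3* of ethylene response at -0.50 and *SPCH* of stomatal development at -0.54, and 2 defence genes, *THI2.1* and *PDF1.4*, were at 0.22 and 0.11. The lists of light signalling and phosphate starvation genes had no member at this signal limit.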

How the data were processed

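The deposited values are linear intensity signals of ATH1 probe sets, which the authors had scaled between arrays. MAS5 is named in the submitters' processing notes (no version given) and D-chip in the study's methods, where arrays of another experiment were normalised in the same run. It is unknown which program produced the signals. Processing in this work used Python 3.11.15, numpy 2.4.6 and pandas 2.3.3. Probe sets that matched several genes (503), organelle genes (92), controls (64) or a symbol of no known gene (6) were left out. A further 10 clock genes had no named probe set. Each was named by finding the probe set whose fitted mean lay within 0.006 of the value tabulated for that gene. The mean came from a least squares fit of a 24 h sine wave at the tabulated phase, which is not a method the study describes.

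Signals under 5% of the mean signal of 413.5 were set to that limit, and log2 differences followed. The probe sets described, the 24 gene lists and the families were chosen with earlier results of these data known. Genes were named where they were among the 12 highest or lowest calls with 1 nuclear gene, the 4 largest differences of a list, the clock genes, or the 5 calls in each direction with the highest signal or the largest excess over the other times. Families and other genes with a symbol were chosen after their values were seen. No depth applies to arrays, and 1 array per group limits the precision. The alternatives tried were other folds, signal limits, scalings and noise scales.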

Additional observations from a re-analysis of the deposited data

Results flagged for a closer look

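Genes called at 32 h that were at least 2-fold apart in the opposite direction at another time are given here, from among those named or belonging to a family described. The differences between times were not tested, because each rests on 1 array a side, and 45 of the 818 called probe sets had such an opposite difference at some other time. AT3G45730, with a log2 difference of -2.71 at 32 h, was 3.28 higher in *fhy3* at 40 h. AT4G22510 stood at -3.50 at 32 h and 1.15 at 40 h. AT4G16980 stood at -2.54 and 1.06 at the same times, and AT5G21020 at -2.12 and 1.37. *SWEET2* was the other way round, at 1.24 at 32 h and -1.03 at 24 h. In AT3G45730 the *fhy3* signal was between 22.4 and 25.5 at 24, 32 and 48 h and 327 at 40 h, whereas the wild type signal was at its lowest, 33.8, at 40 h.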

How the results depend on the processing

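No paired analysis was possible because each genotype and time has 1 array, and for the same reason no array could be left out. The counts of calls, given as higher and lower, were 1433 and 1024 at a 1.5-fold threshold and 254 and 51 at 3-fold. With a signal limit of 50 they were 922 and 416, with 200 they were 339 and 148, and with 100 in both arrays 220 and 126. A lower limit at 20% of the mean signal gave 390 and 161, and no lower limit gave 590 and 226. Requiring 2-fold alone gave 638 and 229, and a difference beyond the 99th percentile of probe sets of like signal gave 483 and 139. Probe sets with 1 named gene alone gave 313 and 125. A signal of 100 on all 8 arrays, chosen after seeing the data, gave 171 and 101. Quantile normalisation gave 502 and 311, and centring each array on its median gave 452 and 387.

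No list median or gene difference that was called changed sign. Under quantile normalisation the median of the reference genes was -0.27. Under median centring the list medians were -0.20 for clock genes, 0.22 for gibberellin, 0.03 for cell wall growth, -0.22 for photosynthesis, -0.27 for chlorophyll synthesis, 0.38 for glucosinolate and sulfur, 0.55 for heat shock and oxidative stress and -0.48 for reference genes. By construction this centring moves each difference by a like amount. Among the 227 genes compared one by one, 95 moved by more than 1 SD, taken for each gene from its own 24 to 48 h differences in both genotypes, under median centring, 32 under quantile normalisation and 7 without the lower limit. Signals near the limit bound the differences of weakly expressed genes.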
